A study of Arabidopsis thaliana with 27 samples.

Results

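The comparison concerns developing seeds of Arabidopsis thaliana at 7-8 days after flowering, in the PDAT line against the fae1 line. It takes 6 of the 27 sequencing libraries of the study, 3 PDAT libraries (A, B and C) and 3 fae1 libraries (A, B and C), chosen by line and age in the labels. PDAT seeds carry the fae1 mutation, the castor bean hydroxylase RcFAH12 and the castor bean acyltransferase RcPDAT1a, both expressed in seeds. fae1 seeds carry the fae1 mutation alone, which all lines of the study share. Both castor genes therefore differ together between these groups. Another line, CL37, carries fae1 and RcFAH12 without RcPDAT1a, and it is used here only to place values. Each library is 1 of 3 biological replicates made from about 100 mg of frozen seed, out of siliques from a single shoot of about 50 plants of a line, grown in constant light at about 22 °C. The labels name 1 line per genotype and do not say whether replicates were separate plantings. The p values therefore measure the spread between replicate libraries, estimated over all 9 groups of the study unless said otherwise.

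As background, an Arabidopsis seed at this age holds a growing embryo, an endosperm that is being consumed and a maternal seed coat that is laying down mucilage and flavonoid pigment. The embryo is turning to the synthesis of oil and storage proteins. FAE1 elongates fatty acids to very long chains, RcFAH12 puts a hydroxyl group on oleic acid, and PDAT enzymes move an acyl group from phosphatidylcholine to diacylglycerol to make triacylglycerol. In whole seeds, fewer cells of a type and less RNA per cell cannot be told apart.

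The library labelled fae1 A did not lie with the others in age. On a scale of 1080 genes with a log2 change of at least 2 in CL37 between 7-8 days (position 0) and 9-10 days (position 1), the PDAT libraries were at -0.10, -0.02 and -0.06. The fae1 libraries were at 0.75 (A), -0.07 (B) and 0.05 (C), so that fae1 A lay among the 9-10 day libraries, which ran from 0.23 to 1.06 over the 3 lines. Its 20 most abundant genes took 41.9% of gene counts, against 9.02% to 17.6% in the other 5 libraries. It is kept under its label, and the results that rest on it are also given without it.

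**Figure D1:**
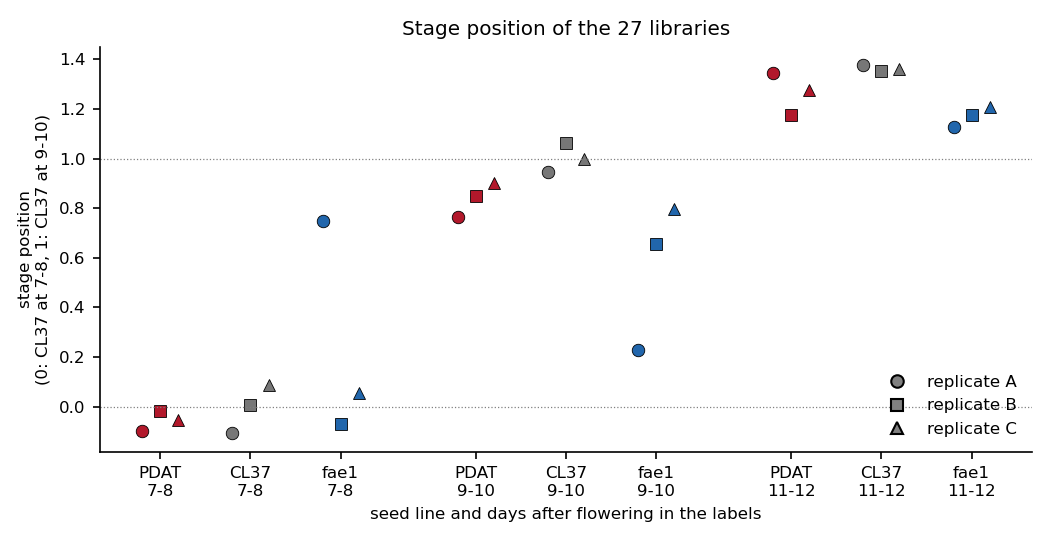
Stage position of the 27 libraries (vertical axis, no unit), where 0 is the mean of CL37 at 7-8 days and 1 that of CL37 at 9-10 days, by line and labelled age; each symbol is 1 library. fae1 A at 7-8 days stands at 0.75, while the other 5 libraries compared here lie between -0.10 and 0.05.

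The libraries also differed by gene length and in the share of alignments that were not unique. CPM (a counts-per-million value) uses library sizes adjusted by TMM. With the tested genes in 5 equal groups by exon length, the median log2 CPM relative to the mean of 27 libraries of the group of longest genes minus that of the shortest was 0.06, 0.25 and 0.23 in PDAT A, B and C. It was 0.37 in fae1 A, -0.63 in fae1 B and -0.79 in fae1 C. Alignments listed as not unique were 19.4%, 16.8% and 16.6% of the total of each PDAT file and 6.28%, 11.4% and 10.9% of each fae1 file (exact two-sided permutation p = 0.10, the smallest that 3 against 3 allows). Gene counts were 11693015, 14415848 and 7999864 in PDAT and 10833619, 6715625 and 7283430 in fae1. The length-adjusted fit and a fit with the share of alignments that were not unique as a term bear on single results. The share did not overlap between the PDAT and the fae1 libraries, so within these 6 it cannot be told apart from the line.

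**Figure D2:**
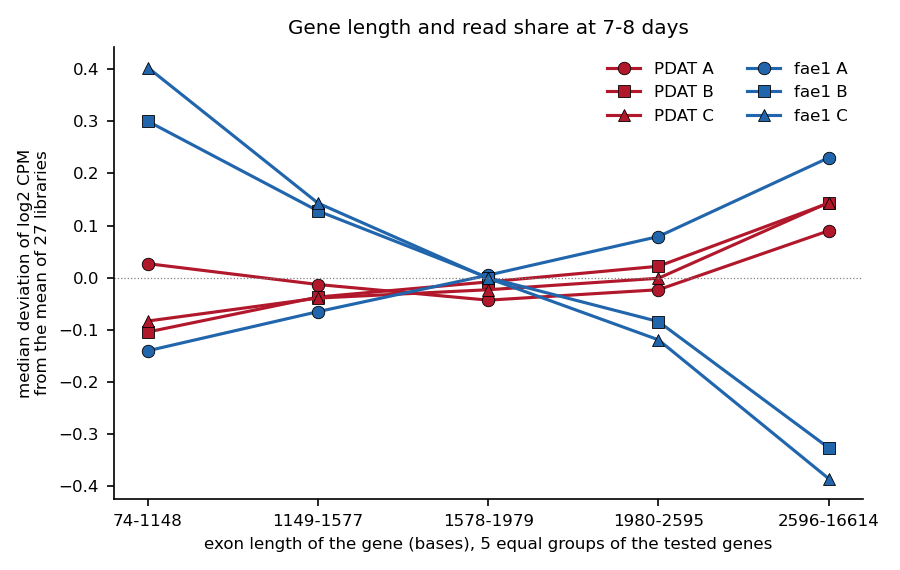
Median deviation of log2 CPM from the mean of all 27 libraries (vertical axis) for 5 equal groups of the tested genes by exon length in bases (horizontal axis), 1 line per library. fae1 B and C fall from the shortest to the longest genes by 0.63 and 0.79, whereas fae1 A and the 3 PDAT libraries rise by 0.06 to 0.37.

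Among the genes with the largest rises, 1 lies near ribosomal RNA genes. Whether the alignments that were not unique came from ribosomal RNA was not tested. AT2G01021 is a 102-base open reading frame without intron, annotated as an uncharacterized protein at chr2:6571-6672 on the plus strand (RefSeq TAIR10.1), 626 bases beyond the end of a 5.8S ribosomal RNA gene. Its whole sequence is shown, 5′ to 3′, because its reads cannot be assigned to this locus alone.
AT2G01021: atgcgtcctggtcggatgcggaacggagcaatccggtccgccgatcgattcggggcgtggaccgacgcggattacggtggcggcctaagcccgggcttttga
The same 102 bases occur once more in the genome, at chr3:14200542-14200643, again 626 bases beyond a 5.8S gene and inside the annotated RNA gene AT3G06365. AT2G01021 had 1857, 2208 and 1643 CPM in PDAT and 303, 340 and 407 CPM in fae1. All 3 PDAT libraries were above all 3 fae1 libraries, with a log2 fold change of 2.44 ± 0.51 (SE; edgeR quasi-likelihood adjusted p = 0.0081). The 18S ribosomal RNA gene AT3G41768, added after its values were seen, had 2573, 2381 and 2201 CPM in PDAT and 916, 1401 and 1323 CPM in fae1. It did not pass the test (log2 fold change 0.97, edgeR adjusted p = 0.20). With the share of alignments that were not unique as a term in the fit, its value was -0.79 (edgeR adjusted p = 0.23).

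Over all genes, 1632 of 18897 tested were called at an adjusted p below 0.05 (8.64%), of which 901 were higher and 731 lower in PDAT than in fae1 seeds (4.77% and 3.87% of tested genes). Of these, 460 were at least 2-fold higher and 187 at least 2-fold lower. Without fae1 A, 2179 genes were higher and 1743 lower (11.5% and 9.22%), and 756 of the higher and 525 of the lower genes were called the same way in both fits. A call may also rest on 1 of the other libraries, so each library was left out in turn: 226 of the higher and 74 of the lower genes were called in all 6 such fits. With the length gradient of each library removed, 1089 genes were higher and 854 lower (5.76% and 4.52%), and without fae1 A as well 1425 and 1180 (7.54% and 6.24%). These counts borrow the spread of all 9 groups, and with the 6 libraries alone only AT4G24480 and AT4G29200 were called (3120 genes at an unadjusted p below 0.05). Of the 18897 genes, 24.8% had PDAT and fae1 libraries that did not overlap, and of the 1632 called genes 91.3%. With the share of alignments that were not unique as a term in the fit, 31 genes were called, 26 of them among the 1632. Of 65 named genes called with all libraries, all 65 had the same sign in that fit and 3 were called, MGL (log2 fold change -2.02), AT4G29200 (-5.36) and LACS7 (1.84). ZOU had 1.01 there, against 1.71 without the term, MYB118 had 1.04 against 1.27, and GL2 had 1.06 against 1.53 (edgeR adjusted p = 0.12 to 0.21). AT2G01021 had 0.96 against 2.44 and DMT2 1.65 against 2.64, whereas GPAT9 had -0.44 against -0.49.

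Several transcription factors of the endosperm and the seed coat were higher in PDAT seeds. ZOU (ZHOUPI, AT1G49770), a factor needed for breakdown of the endosperm and for the embryo cuticle, had 27.7, 26.9 and 34.7 CPM in PDAT against 5.77, 12.0 and 9.56 CPM in fae1. The groups did not overlap, and the log2 fold change was 1.71 ± 0.33 (edgeR adjusted p = 0.0055). MYB118, a factor that represses maturation genes in the endosperm, had 49.0, 42.5 and 54.2 CPM in PDAT against 13.3, 22.3 and 24.7 CPM in fae1. Its log2 fold change was 1.27 ± 0.23 (edgeR adjusted p = 0.0037), again with no overlap. Both were called in all 6 fits that left out a library, and with the length-adjusted fit with and without fae1 A. Without fae1 A the log2 fold changes of ZOU and MYB118 were 1.46 and 1.05 (edgeR adjusted p = 0.0052 and 0.0033). In CL37 they fell from 7-8 to 9-10 days, by log2 changes of -2.23 and -1.30. The part of seed age in these differences was not tested.

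NARS1 (AT3G15510) and NARS2 (AT1G52880), NAC factors that act in the outer layers of the ovule and the seed coat, were also higher. NARS1 had 78.2, 73.1 and 62.9 CPM in PDAT against 16.9, 29.6 and 27.9 CPM in fae1, a log2 fold change of 1.53 ± 0.28 (edgeR adjusted p = 0.0034). NARS2 had 23.3, 16.6 and 13.0 CPM in PDAT against 6.49, 10.0 and 6.89 CPM in fae1, a log2 fold change of 1.18 ± 0.27 (edgeR adjusted p = 0.014). NARS1 was called in all 6 fits that left out a library, and NARS2 in all but that without PDAT A (adjusted p = 0.079).

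GL2 (AT1G79840), a homeodomain factor required for mucilage, had 131, 158 and 92.2 CPM in PDAT against 24.4, 58.2 and 49.5 CPM in fae1. No PDAT library fell within the fae1 range, and the log2 fold change was 1.53 ± 0.31 (edgeR adjusted p = 0.0070). It was called with each library left out, but in the length-adjusted fit without fae1 A its adjusted p was 0.057. TT8 (AT4G09820), a regulator of flavonoid pigment and mucilage, had 69.0, 74.1 and 43.6 CPM in PDAT against 17.7, 31.3 and 27.8 CPM in fae1. Its log2 fold change of 1.28 ± 0.30 (edgeR adjusted p = 0.016) was not called without PDAT A (0.055) or without PDAT B (0.061).

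**Figure D3:**
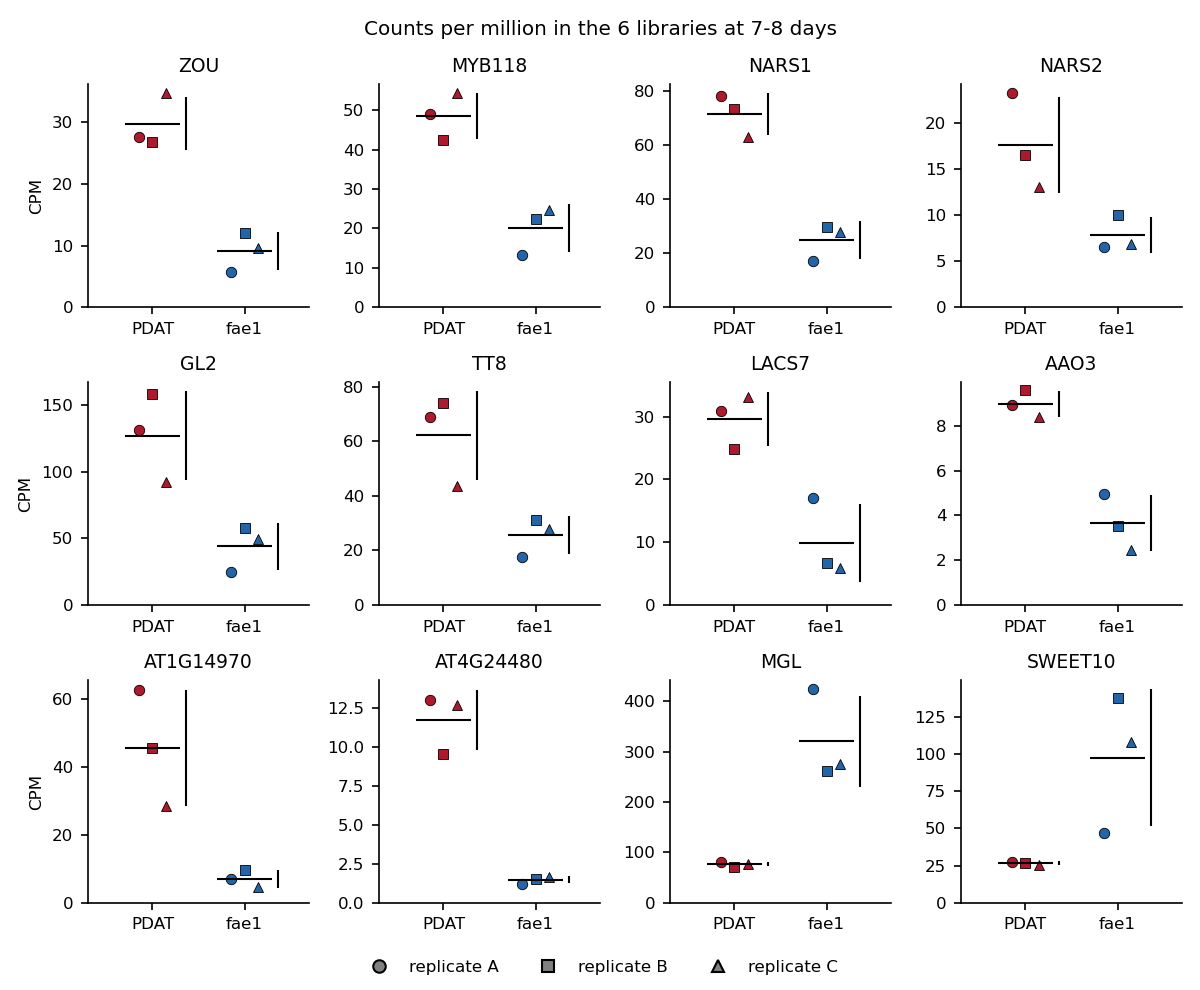
CPM (vertical axes from 0) of 12 named genes in the 3 PDAT libraries and the 3 fae1 libraries at 7-8 days; horizontal bars are means, vertical bars ± 1 SD. In all 12 panels the PDAT and fae1 libraries do not overlap, with 10 genes higher in PDAT and MGL and SWEET10 lower. The 12 were picked among genes called on these libraries. Of all called genes 91.3% do not overlap, against 24.8% of all tested genes.

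The marker lists of these tissues, given as counts beside their medians, show how far the difference spread. Of 11 endosperm genes, 6 passed the filter on low counts, and all 6 had a positive log2 fold change, against 8764 of 18897 tested genes. Their median was 1.61, against -0.04 over all tested genes. ZOU alone was called, where 4.77% of all tested genes were higher. ALE1 (AT1G62340), a protease of the endosperm named after its values were seen, had 94.2, 115 and 116 CPM in PDAT against 16.6, 52.5 and 44.3 CPM in fae1. Its edgeR adjusted p was 0.070, and 0.12 without fae1 A. FIS2 (AT2G35670), a Polycomb gene of the endosperm also named after its values were seen, had 3.36, 3.44 and 3.76 CPM in PDAT against 0, 1.55 and 0.925 CPM in fae1. Its edgeR adjusted p was 0.067, with 0.085 without fae1 A and 0.042 without fae1 B. The summed endosperm list was 420 to 477 CPM in PDAT and 287 to 314 CPM in fae1. Most of this sum was ICE1, at 291, 307.5 and 310.7 CPM in PDAT against 263.3, 246.5 and 256.2 CPM in fae1. ICE1 was not called (log2 fold change 0.25, edgeR adjusted p = 0.18), so the sum says little of the other members.

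Of 19 mucilage genes, 3 (NARS1, NARS2 and GL2) were called higher and none lower. Over all tested genes 4.77% were higher and 3.87% lower, and without fae1 A 11.5% and 9.22%. The median log2 fold change of the mucilage genes was 0.69, and 0.46 without fae1 A. Without fae1 A, 4 were higher, CESA5, a cellulose synthase of the mucilage, being added (log2 fold change 0.84, edgeR adjusted p = 0.013, and 0.38 with length adjusted as well). The summed list was 2504 to 4401 CPM in PDAT and 1114 (A), 3047 (B) and 2426 (C) CPM in fae1, so the PDAT libraries and fae1 B and C overlapped. MUM4 (AT1G53500), which makes the rhamnose of mucilage and was named after its values were seen, had 498, 622 and 366 CPM in PDAT against 104, 314 and 267 CPM in fae1. Its edgeR adjusted p was 0.059, with 0.13 without fae1 A and 0.037 without fae1 B. Of 18 flavonoid genes 16 were tested, with a median log2 fold change of 0.30, and 0.13 without fae1 A. The summed flavonoid list overlapped between the groups, at 1046 to 1268 CPM in PDAT and 966 to 1261 CPM in fae1. TT8 and TT16, a MADS factor of the inner seed coat, were higher and FLS1, flavonol synthase, was lower. TT16 rested on 17, 17 and 11 counts in PDAT and 0, 3 and 0 counts in fae1 (edgeR adjusted p = 0.031). With such fae1 counts, TT16 passed the filter on low counts only through other groups. It could therefore be called higher but hardly lower. It was called with all libraries, without fae1 A and without fae1 B, and not without any of the other 4 (up to 0.096) or by DESeq2 (0.061). FLS1 had 92.8, 98.8 and 99.3 CPM in PDAT against 227, 108 and 149 CPM in fae1, with an edgeR adjusted p of 0.032. It was called without fae1 B and not without any of the other 5 libraries (up to 0.12). Of 10 silique wall genes 5 were tested and none was called by edgeR or DESeq2, or had an unadjusted p below 0.05; the sum was 66.9 to 103 CPM in PDAT and 34.4 to 79.5 CPM in fae1. The part of different amounts of endosperm, seed coat or silique wall in these results was not tested.

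Storage proteins, which fill the embryo during maturation, differed with fae1 A and without it in opposite directions. None of the 13 storage protein genes was called with all libraries by edgeR (8 at an unadjusted p below 0.05), and 1 was called lower by DESeq2; the median log2 fold change was -1.19. Without fae1 A, 3 of the 13 were called higher, against 11.5% of all tested genes. The median was 0.74, and the sign of all 13 log2 fold changes was reversed. With length adjusted as well 7 were higher (against 7.54% of all tested genes), at a median of 1.18. CRC (AT4G28520, cruciferin C) had 5809, 17330 and 11800 CPM in PDAT against 97700, 2956 and 7482 CPM in fae1 A, B and C. Its log2 fold change was -1.63 with all libraries and 1.16 ± 0.38 without fae1 A (edgeR adjusted p = 0.036). CRB (AT1G03880, cruciferin B) gave -1.43 and 1.19 (adjusted p = 0.028 without fae1 A), and AT1G03890, a cupin protein, gave -2.15 and 1.30 (0.040). CRA1 (AT5G44120), the remaining cruciferin and named after its values were seen, had a log2 fold change of 0.93 without fae1 A, just outside the threshold (adjusted p = 0.0503). Without fae1 B, which leaves fae1 A and C, these 4 genes had negative log2 fold changes and were called lower (adjusted p = 0.017 to 0.027). In the 5 libraries without fae1 A taken alone, CRB, AT1G03890 and CRC kept positive values and were not called (0.28 to 0.38).

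LEA proteins, which accumulate late in embryo development and shield cells as seeds dry, were split in the same way. With all libraries 3 of 19 tested members fell (EM1, AT3G15670 and AT3G02480), or 15.8% against 3.87% of all tested genes, and COR47 rose. Without fae1 A no member passed the edgeR threshold. The medians with all libraries and without fae1 A were -1.40 and 0.18. COR47 had 19.7, 19.4 and 24.9 CPM in PDAT against 6.29, 12.4 and 14.5 CPM in fae1 (edgeR adjusted p = 0.036, and 0.065 without fae1 A). EM1 had 1, 3 and 1 counts in PDAT and 468, 7 and 5 counts in fae1. AT3G15670 had 3.79, 11.1 and 7.00 CPM in PDAT against 429, 6.11 and 9.77 CPM in fae1. HVA22B (AT5G62490), FER2 (AT3G11050, a ferritin), AT1G24735 and SNG1 (AT2G22990, which makes sinapoylmalate) fell in the same way, with fae1 A at 36.4 to 138 CPM and the other 5 libraries at 0.617 to 20.1 CPM. Without fae1 A their log2 fold changes lay between -0.36 and -0.02, and their adjusted p values between 0.35 and 0.99. AT3G17520, a LEA family protein outside the list, kept part of its fall: 29.8, 52.7 and 55.1 CPM in PDAT against 499, 82.6 and 103 CPM in fae1. Its log2 fold change was -2.32 ± 0.49 with all libraries and -1.02 without fae1 A (edgeR adjusted p = 0.0083 and 0.031).

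**Figure D4:**
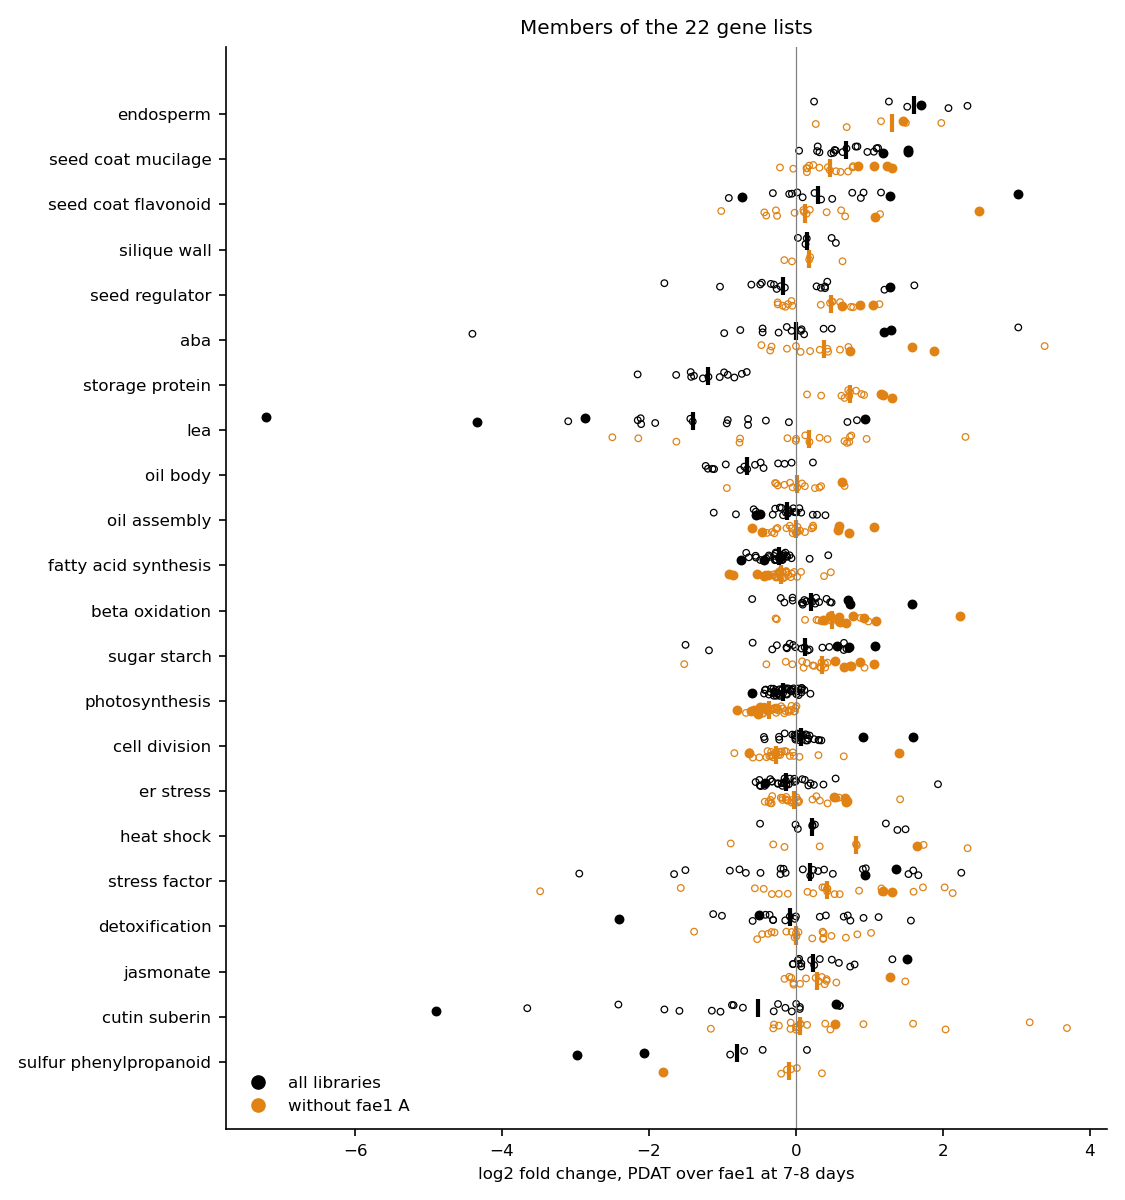
Log2 fold change, PDAT over fae1 at 7-8 days, of the tested members of 22 gene lists (horizontal axis), with all libraries in black and without fae1 A in orange; filled points have an adjusted p below 0.05 and bars are medians. The storage protein median is -1.19 in black and 0.74 in orange, whereas the endosperm medians are 1.61 and 1.31.

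Few genes of oil synthesis were called. FAE1 (AT4G34520), whose mutation both groups carry, had 196, 298 and 296 CPM in PDAT against 816, 245 and 331 CPM in fae1, with a log2 fold change of -0.82 (edgeR adjusted p = 0.078) and of -0.13 without fae1 A. It was called only without fae1 B (0.016). The lipid factor WRI1 had 158, 177 and 186 CPM in PDAT against 249, 205 and 207 CPM in fae1 (edgeR adjusted p = 0.16). The desaturase FAD2 had 1286, 2133 and 1784 CPM in PDAT against 3191, 2341 and 2218 CPM in fae1 (edgeR adjusted p = 0.086, and 0.044 with length adjusted). FAD3, BCCP2 and DGAT1 had log2 fold changes of -1.12, -0.21 and -0.11, none called, and 0.23, -0.13 and 0.22 without fae1 A. The plant's own PDAT1 had 10.1, 9.11 and 10.2 CPM in PDAT seeds against 9.17, 10.5 and 8.84 CPM in fae1 seeds. Its log2 fold change was 0.05 ± 0.13 (edgeR adjusted p = 0.85), and -0.48 with length adjusted and fae1 A left out (0.030). PDAT2 had 6.73, 10.3 and 9.18 CPM in PDAT against 20.4, 3.42 and 4.93 CPM in fae1, and was called higher without fae1 A (log2 fold change 1.06, edgeR adjusted p = 0.012). The castor transcripts were not analysed here.

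Of 24 genes of oil assembly, 2 fell (8.33%, against 3.87% of all tested genes) and none rose with all libraries. GPAT9 (AT5G60620), the acyltransferase of the first step of glycerolipid assembly, had 29.0, 35.2 and 38.0 CPM in PDAT against 49.5, 46.1 and 48.1 CPM in fae1. Its log2 fold change was -0.49 ± 0.11 (edgeR adjusted p = 0.011), lost only without PDAT A (0.067), and in the length-adjusted fit without fae1 A (0.075). ROD1 (AT3G15820), which exchanges head groups between phosphatidylcholine and diacylglycerol, had 134, 166 and 159 CPM in PDAT against 205, 233 and 232 CPM in fae1. Every PDAT library was below every fae1 library, at a log2 fold change of -0.54 ± 0.15 (edgeR adjusted p = 0.033). Leaving out any single library but fae1 A raised the adjusted p of ROD1 above 0.05, up to 0.13. Without fae1 A 4 of the 24 members were higher (against 11.5% of all tested genes), among them PDAT2 and PAH2, which makes diacylglycerol. GPAT9 and ROD1 were lower in that fit (8.33%, against 9.22%). With length adjusted as well PAH2 was not called (0.34), and the list held 2 higher and 2 lower genes.

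Of 33 genes of plastid fatty acid synthesis, 2 fell (6.06%, against 3.87% of all tested genes), both acyl carrier proteins, which hold the growing chain. ACP5 (AT5G27200) had 226, 226 and 284 CPM in PDAT against 345, 406 and 486 CPM in fae1, a log2 fold change of -0.75 ± 0.19 (edgeR adjusted p = 0.020). ACP3 (AT1G54630) had 247, 247 and 269 CPM in PDAT against 346, 325 and 363 CPM in fae1 (log2 fold change -0.44, edgeR adjusted p = 0.046). ACP5 was not called without PDAT A, PDAT B or fae1 C (up to 0.079), and ACP3 not without any library but fae1 A (up to 0.13). Their exons sum to 644 and 1207 bases, and in the length-adjusted fit their adjusted p values were 0.19 and 0.081. The list's median was -0.23. Without fae1 A 5 members were lower (15.2%, against 9.22% of all tested genes), and with length adjusted as well none was called lower by edgeR. No oil body gene of 15 tested was called by edgeR (7 at an unadjusted p below 0.05), with 1 lower by DESeq2, and without fae1 A SEIPIN2, an oil body formation protein, was higher (0.62).

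Peroxisomal beta-oxidation, which breaks fatty acids down, held 3 higher genes of 21 tested with all libraries and 10 without fae1 A. Over all tested genes 4.77% and 11.5% were higher in these fits. No beta-oxidation gene was lower in either fit, and the medians were 0.21 and 0.49. LACS7 (AT5G27600), a peroxisomal acyl-CoA synthetase, had 31.0, 24.8 and 33.1 CPM in PDAT against 17.1, 6.63 and 5.96 CPM in fae1. All PDAT libraries were above all fae1 libraries, with a log2 fold change of 1.58 ± 0.27 (edgeR adjusted p = 0.0023) and of 2.23 without fae1 A. It was called with any library left out and with length adjusted. LACS6 (AT3G05970), its partner, had 37.4, 36.4 and 33.2 CPM in PDAT against 32.1, 16.5 and 17.0 CPM in fae1 (log2 fold change 0.71, edgeR adjusted p = 0.034). It was called without fae1 A, and not without any of the other 5 libraries (up to 0.13). PCK1 (AT4G37870), a gluconeogenic enzyme on the same list, had 125, 148 and 114 CPM in PDAT against 61.8, 84.2 and 86.7 CPM in fae1 (log2 fold change 0.73, edgeR adjusted p = 0.010, and 0.053 without PDAT B). The beta-oxidation genes have a median exon length of 2482 bases against 1771 bases over all tested genes. With length adjusted and fae1 A left out 3 of the 21 were higher and 1 lower, against 7.54% and 6.24% of all tested genes.

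Sugar transport and starch held 3 higher genes of 23 tested with all libraries (4.77% of all tested genes were higher) and 5 without fae1 A (against 11.5%), at medians of 0.12 and 0.35. With length adjusted as well 3 were higher and the median was 0.18. SWEET11 (AT3G48740), a sucrose exporter that feeds the embryo, had 246, 256 and 344 CPM in PDAT against 133, 114 and 156 CPM in fae1, a log2 fold change of 1.07 ± 0.31 (edgeR adjusted p = 0.034). APL2 (AT1G27680), a subunit of the starch enzyme ADP-glucose pyrophosphorylase, and SBE2.2 (AT5G03650), a starch branching enzyme, had log2 fold changes of 0.72 and 0.56 (edgeR adjusted p = 0.022 and 0.019). SWEET11 and APL2 were called with fae1 A left out, and not with any of the other 5 left out, at adjusted p values up to 0.12 and 0.079, and SBE2.2 was not called without PDAT A, PDAT C or fae1 C (up to 0.065). SWEET10 (AT5G50790), a related transporter outside the list, went the other way, with 25.3 to 27.7 CPM in PDAT against 46.9, 137 and 108 CPM in fae1. Its fall was called in every fit that left out a library (log2 fold change -1.87 ± 0.43, edgeR adjusted p = 0.014).

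Of 16 abscisic acid genes tested, 2 were higher, an enzyme of the last step of synthesis and one that matures its cofactor. Over all tested genes 4.77% were higher with all libraries and 11.5% without fae1 A. AAO3 (AT2G27150), abscisic aldehyde oxidase, had 8.92, 9.58 and 8.40 CPM in PDAT against 4.95, 3.52 and 2.47 CPM in fae1. Its log2 fold change was 1.30 ± 0.22 (edgeR adjusted p = 0.0025), called with any library left out, and 0.060 was its adjusted p in the length-adjusted fit without fae1 A. ABA3 (AT1G16540), which activates the cofactor of AAO3, had 11.0, 7.24 and 6.21 CPM in PDAT against 6.29, 2.59 and 1.85 CPM in fae1, so the groups overlapped. It was called with all libraries (adjusted p = 0.044) and without fae1 A (0.0018), but not without any of the other 5 libraries (up to 0.18). Among 18 seed regulators tested, MYB118 was the one called, and without fae1 A the repressor VAL1 and the remodeler PKL were called too (log2 fold changes 0.87 and 0.63, and 0.40 and -0.11, not called, with length adjusted as well).

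The remaining lists held few calls, to be read beside the shares over all tested genes. These were 4.77% higher and 3.87% lower with all libraries, and 11.5% and 9.22% without fae1 A. Of 29 cell division genes CDC20-1 and CDC20-2, activators of the anaphase-promoting complex, were higher, with log2 fold changes of 0.91 and 1.60 (edgeR adjusted p = 0.036 and 0.014). CDC20-2 had 12.8, 8.80 and 8.40 CPM in PDAT against 2.37, 4.24 and 3.29 CPM in fae1. CDC20-2 was not called without PDAT A (0.067), and CDC20-1 not without any library but fae1 B (up to 0.096). Of the 29 log2 fold changes 19 were positive with all libraries and 4 without fae1 A, at medians of 0.06 and -0.27. Without fae1 A CDC20-2 was higher, and CYCD3;1, a D-type cyclin, was lower (-0.64, edgeR adjusted p = 0.0072). These CDC20 genes are neighbouring copies, so reads may have been split between them. Among 16 jasmonate genes LOX3, a lipoxygenase, was higher, at 26.8, 42.2 and 18.5 CPM in PDAT against 6.80, 12.7 and 11.4 CPM in fae1 (log2 fold change 1.50, edgeR adjusted p = 0.0089, and 0.056 without PDAT B). Among 25 stress factors ZAT12 and NAC019 were higher (1.37 and 0.94, edgeR adjusted p = 0.030 and 0.041). ZAT12 was not called without PDAT A, PDAT C, fae1 A or fae1 B (up to 0.10), nor NAC019 without PDAT A, PDAT C, fae1 B or fae1 C (up to 0.13). Among 9 heat shock genes none was called by edgeR or DESeq2, and 2 had an unadjusted p below 0.05. HSP101 had 24.3, 61.9 and 56.7 CPM in PDAT against 91.9, 12.4 and 18.0 CPM in fae1, and was called higher without fae1 A (1.64, edgeR adjusted p = 0.017, and 0.073 with length adjusted as well).

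Among 31 genes of endoplasmic reticulum stress, PDIL2-1, a protein disulfide isomerase, was lower (log2 fold change -0.42, edgeR adjusted p = 0.046). It was called without fae1 B and not without any of the other 5 libraries (up to 0.17). Without fae1 A no member of the list was lower and 4 of the 31 were higher, in a fit where 11.5% of all tested genes were higher. They were the stress sensors IRE1A (0.67) and IRE1B (0.68), the chaperone ERDJ3A (0.70) and HRD1A (0.51), which acts in protein degradation (edgeR adjusted p = 0.024 to 0.043). With length adjusted as well, ERDJ3A alone of these was called (0.047), and the medians in the 3 fits were -0.14, -0.03 and -0.07. Among 21 detoxification genes GSTU19 and GSTU24 were lower; GSTU24 had 0.694, 2.08 and 1.66 CPM in PDAT against 19.2, 1.76 and 2.47 CPM in fae1 (edgeR adjusted p = 0.032, and 0.58 without fae1 A). GSTU19 had 130, 145 and 151 CPM in PDAT against 216, 188 and 203 CPM in fae1 (edgeR adjusted p = 0.049) and was called in none of the 6 fits that left out a library. Among 20 cutin and suberin genes CYP86A2, a hydroxylase of cutin, was higher and CYP86A1, its suberin relative, lower. CYP86A1 had 1, 0 and 1 counts in PDAT and 42, 1 and 1 counts in fae1 (edgeR adjusted p = 0.049, and 0.78 without fae1 A). Of 42 photosynthesis genes PSAN, a photosystem I subunit, fell (-0.60, edgeR adjusted p = 0.040, and 0.092 with length adjusted). It was called without PDAT C and without fae1 A, and not without any of the other 4 (up to 0.16). Without fae1 A 5 photosynthesis genes fell (11.9%, against 9.22% of all tested genes) at a median of -0.36. With length adjusted as well 2 fell, and the median was -0.06. LHCB5, a light-harvesting protein, was among them, at 1352, 1680 and 1728 CPM in PDAT against 1518, 2581 and 2274 CPM in fae1.

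The 12 largest rises among called genes of sufficient abundance included the following. AT1G14970, an O-fucosyltransferase family protein, had 62.6, 45.4 and 28.4 CPM in PDAT against 7.01, 9.63 and 4.52 CPM in fae1, a log2 fold change of 2.69 ± 0.35 (edgeR adjusted p = 0.00033). AT4G24480, a protein kinase, had 13.0, 9.53 and 12.7 CPM in PDAT against 1.24, 1.55 and 1.65 CPM in fae1 (2.98 ± 0.46, edgeR adjusted p = 0.0012). The PDAT libraries were all above the fae1 libraries, and both genes were called with any library left out. DMT2 (AT4G14140), a DNA methyltransferase, had 21.2, 13.2 and 23.1 CPM in PDAT against 1.03, 5.07 and 3.08 CPM in fae1 (2.64 ± 0.46, edgeR adjusted p = 0.0025). LAS1 (AT3G45130), lanosterol synthase, had 55.2, 44.4 and 76.5 CPM in PDAT against 12.8, 10.2 and 10.9 CPM in fae1 (2.38 ± 0.47, edgeR adjusted p = 0.0059). HAC4 (AT1G55970), a histone acetyltransferase, had 26.1, 14.6 and 25.3 CPM in PDAT against 9.79, 2.28 and 1.03 CPM in fae1, a log2 fold change of 2.33 that was 3.72 without fae1 A. Its call was lost without PDAT A and without fae1 C (edgeR adjusted p = 0.053 and 0.052). AT3G43690, AT1G65370, AT4G08035, AT2G30810, AT3G46240 and AT1G79245, with AT2G01021 above, make up the rest of the 12 and had log2 fold changes of 2.32 to 3.33. AT1G65370 was not called without PDAT A (0.056), AT3G46240 not without PDAT C (0.057), and AT2G30810 was called only without fae1 C.

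Without fae1 A, 5 further genes entered the 12 largest rises, AT1G53780, AT2G11240, MEE44, AT5G24620 and AT5G25560, with log2 fold changes of 2.48 to 2.85. AT2G11240 had 100.5, 60.0 and 60.2 CPM in PDAT against 33.8, 15.9 and 4.42 CPM in fae1, so that fae1 A was the highest fae1 library. MEE44, a nucleotidyltransferase family protein, had 13.1, 9.94 and 11.4 CPM in PDAT against 11.7, 2.79 and 0.720 CPM in fae1, and was not called with all libraries (edgeR adjusted p = 0.14). The falls gained 5, AT2G07787, AT2G27402, AT4G34800, a SAUR-like auxin-responsive protein, and the mitochondrial ATMG01170 and ATMG01370, with log2 fold changes of -1.91 to -1.78. All 5 were called with fae1 A left out and not with any other library left out (adjusted p up to 0.29).

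The 12 largest falls held SWEET10, MGL (described later), the plastid genes ATCG00220 and ATCG00630, the uncharacterized AT2G07774 and AT2G07783, the ribosomal protein gene AT3G08520, and 5 genes named above with their highest level in fae1 A (AT1G24735, FER2, AT3G15670, AT3G17520 and HVA22B). ATCG00220, AT2G07774 and AT2G07783 were called with fae1 A left out and not with any other library left out (adjusted p up to 0.17). AT3G08520 encodes the ribosomal protein L41, and its sequence is shown for its shortness, since the libraries differed by gene length. Its coding sequence, joined from 2 exons at chr3:2586032-2586206 on the plus strand (RefSeq TAIR10.1), has 78 bases.
AT3G08520: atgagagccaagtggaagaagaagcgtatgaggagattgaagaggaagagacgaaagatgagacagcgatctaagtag
AT3G08520 had 8.44, 3.07 and 5.51 CPM in PDAT against 12.8, 17.0 and 23.5 CPM in fae1 (log2 fold change -1.65 ± 0.41, edgeR adjusted p = 0.021). The call was lost without PDAT B, PDAT C or fae1 C (up to 0.093), and kept with length adjusted (0.0040). Of 280 tested genes annotated as ribosomal proteins outside the organelles, a group formed after the values were seen, 83 (29.6%, against 3.87% of all tested genes) were lower and 2 higher with all libraries. Without fae1 A 218 (77.9%, against 9.22%) were lower, and with length adjusted as well 110; the medians were -0.50, -0.69 and -0.32. Their median exon length was 1000.5 bases, against 1771 bases over all tested genes.

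Of 118 tested genes encoded in the plastid or mitochondrion, a group also formed after the values were seen, 12 (10.2%, against 3.87% of all tested genes) were lower and none higher, with a median of -0.67. Without fae1 A 27 (22.9%, against 9.22%) were lower, with a median of -0.87. ATCG00630, a plastid gene, had 12.1, 5.36 and 8.92 CPM in PDAT against 31.7, 41.5 and 79.4 CPM in fae1 and was called with any library left out (-2.53 ± 0.51, edgeR adjusted p = 0.0066). The library kit selects polyadenylated RNA, so organelle levels are those of what passed that selection. The share of all gene counts from organelle genes was 0.454%, 0.364% and 0.455% in PDAT and 0.167%, 0.371% and 0.399% in fae1.

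MGL (AT1G64660, chr1:24028830-24030780), methionine gamma-lyase, which degrades methionine, had 80.7, 71.8 and 77.4 CPM in PDAT against 424, 262 and 275 CPM in fae1. Every PDAT library was below every fae1 library, with a log2 fold change of -2.07 ± 0.28 (edgeR adjusted p = 0.00038) and of -1.81 without fae1 A. In the separate libraries of 9-10 days it averaged 61.1 ± 4.43 CPM in PDAT and 363 ± 36.5 CPM in fae1 (SD, n = 3 each), a log2 fold change of -2.57. At 11-12 days it averaged 74.2 ± 0.947 CPM in PDAT and 613 ± 53.1 CPM in fae1 (-3.05). CL37 at 7-8 days had 87.1, 69.0 and 45.6 CPM. MGL is on a list of 6 sulfur and phenylpropanoid genes, of which MGL and SNG1 were lower with all libraries and MGL alone without fae1 A.

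MGL is 1 of 7 genes called in the same direction at all 3 stages and without fae1 A, the other 6 being named after their values were seen. AT4G29200 (chr4:14398054-14400198), annotated as a beta-galactosidase related protein, had 1, 3 and 0 counts in PDAT, 76, 56 and 96 counts in fae1, and 0 counts in all 3 CL37 libraries at 7-8 days. AT1G27565 had 1, 2 and 0 counts in PDAT and 9, 15 and 12 counts in fae1, and AT4G06748 had 11, 8 and 5 counts in PDAT and 56, 17 and 22 counts in fae1. With such PDAT counts, AT4G29200 and AT1G27565 passed the filter on low counts only through other groups. Both could therefore be called lower but hardly higher. The higher ones were CYP86A2, AT1G49050, an aspartyl protease family protein, and AT4G29780, annotated as a nuclease. CYP86A2 had 26.8, 38.0 and 25.2 CPM in PDAT against 19.8, 21.4 and 20.2 CPM in fae1 at 7-8 days (log2 fold change 0.55 ± 0.14, edgeR adjusted p = 0.022). The difference was 1.06 at 9-10 days and 1.47 at 11-12 days. At 7-8 days CYP86A2 was not called without PDAT B (0.14) or without fae1 C (0.057), and AT1G49050 not without PDAT A, PDAT C, fae1 B or fae1 C (up to 0.085).

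**Figure D5:**
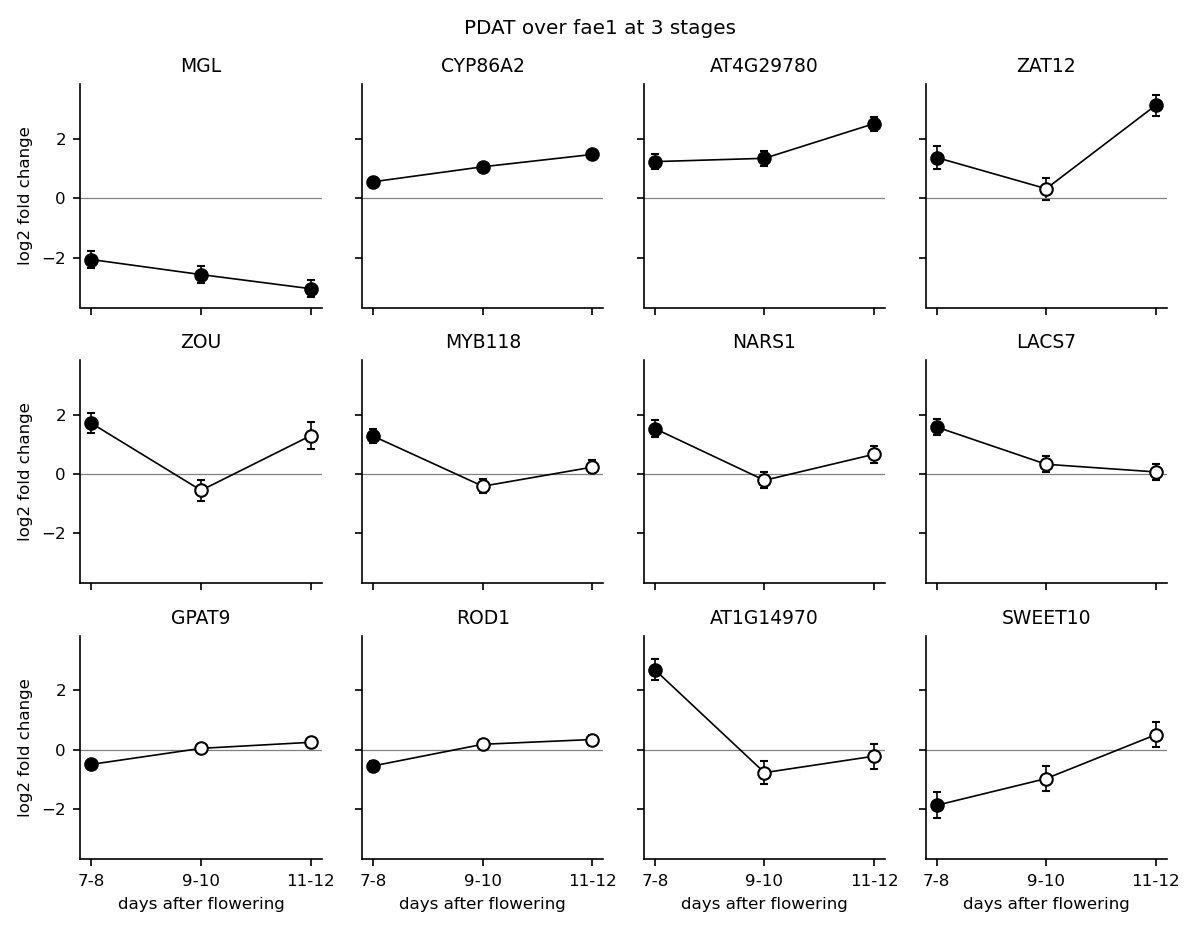
Log2 fold change, PDAT over fae1 (vertical axis), at 7-8, 9-10 and 11-12 days after flowering (horizontal axis) for 12 named genes, with 1 SE; filled points have an adjusted p below 0.05. MGL lies at -2.07, -2.57 and -3.05, whereas ZOU, MYB118, NARS1, LACS7 and AT1G14970 are called at 7-8 days only.

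The later stages have libraries of their own, and few of the calls of 7-8 days were made there. At 9-10 days 12 genes were higher and 5 lower in PDAT than in fae1 (0.0635% and 0.0265%), and at 11-12 days 932 were higher and 317 lower (4.93% and 1.68%). Of the 756 genes higher at 7-8 days in both fits, 404 (53.4%) had a positive log2 fold change at 9-10 days, against 48.9% of all tested genes, and 3 were called. At 11-12 days 411 (54.4%, against 52.9%) were positive and 50 were called higher and 13 lower. Of the 525 lower genes, 433 (82.5%, against 51.1%) were negative at 9-10 days and 4 were called, and 218 (41.5%, against 46.9%) were negative at 11-12 days, where 19 were called lower and 11 higher. The median log2 fold change of the group of shortest genes was -0.27 at 7-8, -0.30 at 9-10 and 0.29 at 11-12 days. The change of the difference from 7-8 to 11-12 days passed the test for 1444 genes (7.64%).

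CL37 at 7-8 days stands beside these values, but PDAT over fae1 and CL37 over fae1 share the fae1 libraries. ZOU had a log2 fold change of 1.71 in PDAT over fae1 and 1.20 in CL37 over fae1. MYB118 had 1.27 and 0.99, NARS1 1.53 and 0.70, GL2 1.53 and 0.57, and LACS7 1.58 and 0.79 in the same order. GPAT9 had -0.49 and -0.12, ROD1 -0.54 and -0.08, and ACP5 -0.75 and -0.35. For these 8 genes the value of PDAT over fae1 passed the test, and neither CL37 over fae1 nor PDAT over CL37 did. MGL had -2.07 and -2.25, both called. Over all genes, 2 were called between PDAT and CL37 (0.0106%) and 5 between CL37 and fae1 (0.0265%).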

How the data were processed

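RNA from seeds of 3 lines at 3 ages was sequenced in 27 libraries. The deposited files hold whole-number counts of reads per gene, made by the authors. Per the submitters' processing notes, which give no roles, the tools were TopHat2 2.0.3 and HTSeq 0.5.4p3, with Trimmomatic 0.22, bcl2fastq 1.8.2 and Cufflinks 2.0.1, and the build was TAIR10. Settings for strand and for reads with several alignments are not given in the sources used here, so overlapping or near-identical genes are uncertain. The 5 summary lines of each file, which name no gene, were left out of library sizes; the alignments they list as not unique were 6.28% to 19.4% of a file in the 6 libraries. A table of FPKM values was not used.

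Here, genes passing the filterByExpr function on 9 groups (18897 of 33602) were tested in 1 fit of all 27 libraries with the quasi-likelihood test of edgeR 4.0.16 (R 4.3.3, limma 3.58.1), TMM factors and Benjamini-Hochberg adjustment over all tested genes; called means an adjusted p below 0.05. CPM used TMM-scaled library sizes. The SE of a log2 fold change was taken from its F statistic. Replicate libraries differed beyond counting noise, so each counted as 1 sample. Alternatives were RLE and upper-quartile factors, no filter, DESeq2 1.42.0, the 6 libraries alone, a replicate block, a term for alignments that were not unique, and each library left out. Offsets for length (a lowess per library of log2 CPM on exon length, span 0.3) were added after seeing the data. The scripts were tested on simulated data.

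Named genes were the 12 largest rises and falls among called genes with an average log2 CPM of at least 2 and the same sign without fae1 A, the same without fae1 A, up to 4 called genes per list in each fit, and 9 lipid genes; others are said to be named after their values were seen. The members and the 22 lists were chosen with earlier results of these data known. Names and coordinates are from RefSeq TAIR10.1.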

Additional observations from a re-analysis of the deposited data

Results flagged for a closer look

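The change of the difference between PDAT and fae1 from 7-8 days to 11-12 days was tested as an interaction in edgeR over all genes. Of 106 named genes, 21 passed it, with adjusted p values of 0.0052 to 0.045, against 1444 of 18897 tested genes (7.64%). Each value below is the log2 fold change of PDAT over fae1 at 11-12 days minus that at 7-8 days. The values include fae1 A, and no explanation was tested. They are not given with length adjusted, and the median of the group of shortest genes was -0.27 at 7-8 and 0.29 at 11-12 days. Most named genes were chosen by their 7-8 day values, which the interaction subtracts. The choice itself therefore favours differences that shrink or turn at 11-12 days.

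Among the genes higher in PDAT at 7-8 days, the difference was smaller or turned at 11-12 days for AT1G14970 (-2.91), AT3G43690 (-3.45), HAC4 (-3.69), AT4G08035 (-2.68), AT5G25560 (-2.20), LACS7 (-1.51) and APL2 (-1.24). LACS7 had a log2 fold change of 0.07 at 11-12 days, against 1.58 at 7-8 days. HAC4 had -1.37 at 11-12 days, against 2.33 at 7-8 days. The difference was larger at 11-12 days for CYP86A2 (0.92), AT4G29780 (1.28) and ZAT12 (1.76), which had log2 fold changes of 1.47, 2.51 and 3.13 there.

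Among the genes with a negative log2 fold change at 7-8 days, the value was positive at 11-12 days in all 11 that passed. They were SWEET10 (2.38), GPAT9 (0.74), ROD1 (0.89), FAD2 (1.07), PDIL2-1 (0.62), GSTU19 (1.04), GSTU24 (3.07), CYP86A1 (6.85), AT3G08520 (2.11), AT2G07774 (2.31) and ATCG00630 (2.55). GPAT9 had a log2 fold change of 0.25 at 11-12 days, against -0.49 at 7-8 days. The 7-8 day values of CYP86A1 and GSTU24 rest on fae1 A, where their counts were highest. That of FAD2 was not called.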

How the results depend on the processing

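The total of 1632 genes called was 1615 with RLE and 1625 with upper-quartile factors. It was 1081 (404 lower) with no filter on low counts, and DESeq2 gave 2289 (1157 lower). The 6 libraries alone gave 2 genes, 1 higher and 1 lower. A term for the share of alignments that were not unique left 31, of which 15 were higher and 16 lower. The letters A, B and C did not pair the samples (same-letter correlations of -0.30, -0.13 and -0.01), so that a replicate block pairs only names: it gave 0 genes by edgeR on the 6 libraries (2062 at an unadjusted p below 0.05) and 1676 on all 27. Leaving out 1 library each time gave 524 to 3922 genes, 363 to 2179 higher and 161 to 1743 lower. Leaving out fae1 A gave 3922, fae1 C 876, and PDAT A, B and C 524, 595 and 655. Without fae1 A at both 7-8 and 9-10 days 4306 were called (2323 higher, 1983 lower), and the 5 libraries without fae1 A alone gave 5123 (2580 and 2543). Length adjustment, chosen after seeing the data, gave 1943, and 2605 without fae1 A (1425 and 1180). The change from 7-8 to 11-12 days, called for 1444 genes, was called for 957 without the filter, 2303 by DESeq2, 5331 without both fae1 A libraries, and 588 to 5047 with 1 library left out. No scaling moved the median of all genes by over 0.1.

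The sign of a value called in either fit changed for 11 named genes, in each case in a fit that left out fae1 A. For FER2, AT3G15670, HVA22B and PDAT1 it changed only where length was adjusted as well. PDAT1 had 0.02 without fae1 A and -0.27, not called, with length adjusted on all libraries. Log2 fold changes without fae1 A, without both fae1 A libraries and with length adjusted as well were 1.19, 1.19 and 1.26 for CRB, 1.30, 1.30 and 1.42 for AT1G03890, and 1.16, 1.16 and 1.18 for CRC; the 5 libraries alone gave 1.16, 1.27 and 1.13 for these 3, not called (adjusted p = 0.30, 0.38 and 0.28). In the same order they were 1.06, 1.06 and 1.01 for PDAT2 (1.04 with 5 libraries) and 0.43, 0.43 and 1.12 for AT3G02480 (0.41 with 5 libraries). IRE1A had 0.67 without fae1 A, 0.67 without both, 0.65 with 5 libraries and 0.32, not called (0.15), with length adjusted. CRA1 had 0.93 without both. With length adjusted and fae1 A left out, FER2 had 0.26, AT3G15670 0.26, HVA22B 0.47 and PDAT1 -0.48. With 1 library left out each time, the lowest log2 fold changes were -1.98 for CRB, -2.85 for AT1G03890, -2.18 for CRC, -0.39 for IRE1A, -3.42 for AT3G02480 and -0.54 for PDAT2. The cause was not tested. EM1 and CYP86A1, with a few counts in the other libraries compared, are set by fae1 A. TT16 and FIS2 were low in all fae1 libraries, and whether they were called changed with the library left out.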
